A study of Mus musculus with 6 samples.

Results

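The wild type mouse ventricle was compared between 20 weeks and 4 weeks of age, that is, between young adult hearts and hearts of about weaning age. The comparison used 6 of the 18 libraries of the study: 3 from WT mice at 20 weeks (20w) and 3 from WT mice at 4 weeks (4w). It covered 13032 of the 24391 genes in the table, those whose values averaged 10 or more across all 18 libraries. All mice were C57BL/6, WT here means wild type for Klf15, the Kruppel-like transcription factor that the study deleted in its other genotype, and no treatment is given. RNA came from whole cardiac ventricles, which hold cardiomyocytes together with fibroblasts, endothelium, smooth muscle and macrophages. The other groups were Klf15 loss of function (KO) at 20w, 4w and postnatal day 10 (P10) and WT at P10, with 3 libraries each. Nothing in the labels ties the 3 libraries of 1 group to different mice, and p-values therefore reflect library-to-library spread, which may be technical. The labels give neither the sex of the mice nor the way the KO was made.

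After birth the mouse heart stops dividing its cardiomyocytes, grows by enlarging them, and moves its fuel use from glucose towards fatty acids. The collagen scaffold is laid down by fibroblasts mostly in the first weeks, and imprinted growth genes such as Igf2 are shut down over the same time. By 4 weeks the heart has the adult cell types, and growth slows between then and 20 weeks.

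The values are normalized counts, meaning reads per gene divided by 1 factor per library to make libraries comparable. The 20w WT libraries held 9504538 to 9630244 reads and the 4w WT libraries 11689856 to 12348671, so depth was similar within each group and slightly lower at 20w. Cardiomyocyte RNA was plentiful in all 6 libraries, as the label has it: Myh6, the adult cardiac myosin, was at 456951, 465472 and 445022 in the 20w libraries and at 360654, 435376 and 445224 in the 4w libraries. Y-linked genes were read in all 6 libraries, and Xist, the transcript of the inactive X, did not pass 9.40. Klf15 itself was at 1032.2, 942.5 and 1090.0 in the 20w WT libraries, against 1092.0, 860.2 and 1282.7 in the 4w WT libraries. It was at 43.4, 43.9 and 32.8 in the 20w KO libraries and at 54.8, 28.4 and 43.5 in the 4w KO libraries. Shisa3, the gene in the title of the study, had values that overlapped between the ages, at 43.9, 39.5 and 36.1 in the 20w WT libraries and 86.6, 41.7 and 34.8 in the 4w WT libraries (log2 fold change -0.33 ± 0.31 SE, adjusted p = 0.47). The library 4wWT1 stood apart from the other 4w WT libraries in cell cycle genes, histones and Esr1, and 20wWT1 stood apart in immediate early genes, as given beside those results. The library 4wWT2 stood apart in Rprl3, an RNase P RNA-like gene named after its values were seen, at 464.65 against at most 9.28 in the other 4w and 20w WT libraries and 262.1 to 2117.7 in the KO libraries. It also stood apart in Myh7, at 13491 against at most 3325 in those WT libraries and 8015.9 to 20455 in the KO libraries, while its Klf15 value was 860.2, and the source of these values was not tested. Without 4wWT2, 2478 genes changed between 4w and 20w, in place of the 3273 given next. Rn45s, the ribosomal RNA precursor, took 0.258%, 2.72% and 0.258% of the 20w values and 0.658%, 1.74% and 0.322% of the 4w values.

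Between 4w and 20w, 3273 of the 13032 genes changed (25.1%, limma with Benjamini-Hochberg adjustment, adjusted p under 0.05). Of these, 1736 were higher at 20w (13.3%) and 1537 were lower (11.8%). The changes were mostly small: the median log2 fold change, 20w over 4w, was 0.46 among the higher genes and -0.52 among the lower genes. A change beyond 1 on the log2 scale was seen in 190 higher and 300 lower genes. In 5345 genes the 2 groups of libraries did not overlap at all (41.0% of the genes, 2730 with the 20w values above and 2615 with them below). The median over all genes was -0.017. The split depended on the scaling. When every library was brought to the same total, 1771 genes were called, 406 higher and 1365 lower, so the share of higher genes among the calls was 22.9% in place of 53.04%, and the median over all genes moved to -0.156. These totals include Rn45s, and all 18 libraries shared 1 fit, 4wKO2 among them, with 30.8% of its reads in Rn45s. The part of 4wKO2 in the results at a common total was not tested. The totals of the deposited values were 15053660, 15632894 and 15103373 at 20w and 13300719, 13927266 and 14321281 at 4w, and titin (Ttn) alone took 11.5%, 12.0% and 12.2% of them at 20w and 8.80%, 7.49% and 9.24% at 4w.

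The direction of change ran with transcript length. The longest annotated transcript had a median of 4948 bases for the genes that rose and 2770 bases for those that fell, against 3492 bases over all genes with a length (96.2% of those tested). With the genes split by length into 4 equal bins, 4.72% rose and 18.1% fell in the shortest bin, whereas 26.8% rose and 6.99% fell in the longest. The plot of the median step by length shows the same order in the KO, over a smaller range, and the opposite order between P10 and 4w, a step that shares the 4w WT libraries. Median GC content was 48.4% for the genes that rose and 51.1% for those that fell. The part of transcript length in the gene results that follow was not tested. Median lengths are given for some of the lists with long or short transcripts, namely 6024 bases for collagens, 5524 for calcium and sodium channels, 1386 for the respiratory chain and 1265 for cytosolic ribosomal proteins.

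**Figure D1:**
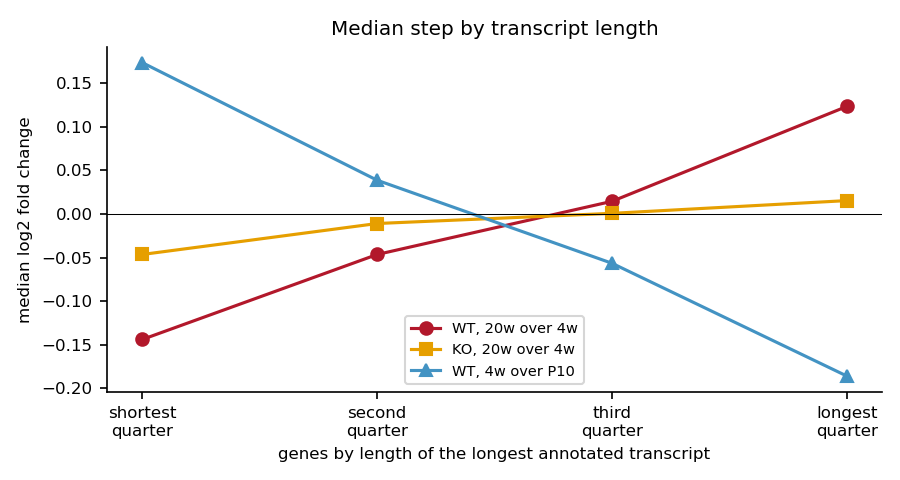
Median log2 fold change of the genes in 4 equal bins of transcript length, for WT 20w over 4w (circles), KO 20w over 4w (squares) and WT 4w over P10 (triangles). The WT medians at 20w run from -0.144 in the shortest bin to 0.123 in the longest, the KO medians from -0.046 to 0.015, and the 4w over P10 medians from 0.173 to -0.186.

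Among genes averaging 50 or more over the 6 libraries whose 2 ages did not overlap, the largest increases included membrane, adhesion and metabolic genes. Ano5, an anoctamin whose loss causes a muscular dystrophy in people, was at 231.8, 108.6 and 97.2 normalized counts in the 20w libraries, against 0.0, 3.57 and 2.32 in the 4w libraries (log2 fold change 5.78 ± 0.59 SE, adjusted p = 1.5e-06). It was close to silent in every 4w library and clearly read in every 20w library. Cdh4, the adhesion protein R-cadherin, was at 172.3, 144.7 and 133.3 at 20w and at 8.88, 7.15 and 4.64 at 4w (4.29 ± 0.28, adjusted p = 1.3e-08). Cpxm2, a secreted carboxypeptidase-like protein, was at 361.8, 338.8 and 315.2 at 20w and at 33.3, 29.8 and 45.2 at 4w (3.21 ± 0.22, adjusted p = 1.3e-08). For Cdh4 and Cpxm2 the 20w libraries lay closer to each other than to any 4w library. Acsm5, a medium-chain acyl-CoA synthetase, rose 7.61-fold. Bdh1, which starts the use of the ketone body beta-hydroxybutyrate, was at 2081.6, 1835.6 and 1866.3 at 20w and at 450.6, 257.3 and 317.8 at 4w, a rise of 5.77-fold (adjusted p = 7e-06). Mfsd4, a carrier of the major facilitator family, rose 6.28-fold, Cds1, which makes CDP-diacylglycerol for phospholipids, rose 4.65-fold, and Best3, a bestrophin channel, rose 4.45-fold.

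The largest decrease was in Esr1, which encodes estrogen receptor alpha, and its 4w values were unlike those of any other group. It was at 50.1, 31.3 and 29.8 in the 20w libraries, against 30245.9, 5205.2 and 345.6 in the 4w libraries (-6.68 ± 0.89, adjusted p = 2.8e-05). All 3 of the 4w WT libraries were above every other library of the study, whose highest value was 77.1, and they differed widely from each other. What the Esr1 reads at 4w come from was not tested. Lrat, which esterifies retinol for storage, was at 7.83, 18.1 and 28.2 at 20w and at 581.5, 263.3 and 306.2 at 4w (-4.41 ± 0.36, adjusted p = 1.5e-07), so that the groups stood far apart. The naming rule required groups that do not overlap for every gene named in this paragraph. Tfrc, the transferrin receptor that takes up iron, was at 2670.5, 3878.4 and 1499.3 at 20w and at 7785.1, 10742.8 and 10539.7 at 4w (-1.94 ± 0.22, adjusted p = 5.5e-06). Kcne1, a subunit of a slow potassium channel, fell 3.70-fold, Adamts12, a secreted protease, fell 4.50-fold, and C1qtnf6, a secreted relative of complement protein C1q, fell 3.81-fold. Slc1a4, a carrier of neutral amino acids, was at 25.1, 21.4 and 29.8 at 20w and at 294.1, 58.4 and 49.9 at 4w (-1.88 ± 0.40, adjusted p = 0.0022), and without 4wWT1 its change was -1.07. The remaining genes with large decreases belong to the matrix, smooth muscle and dividing cells.

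**Figure D2:**
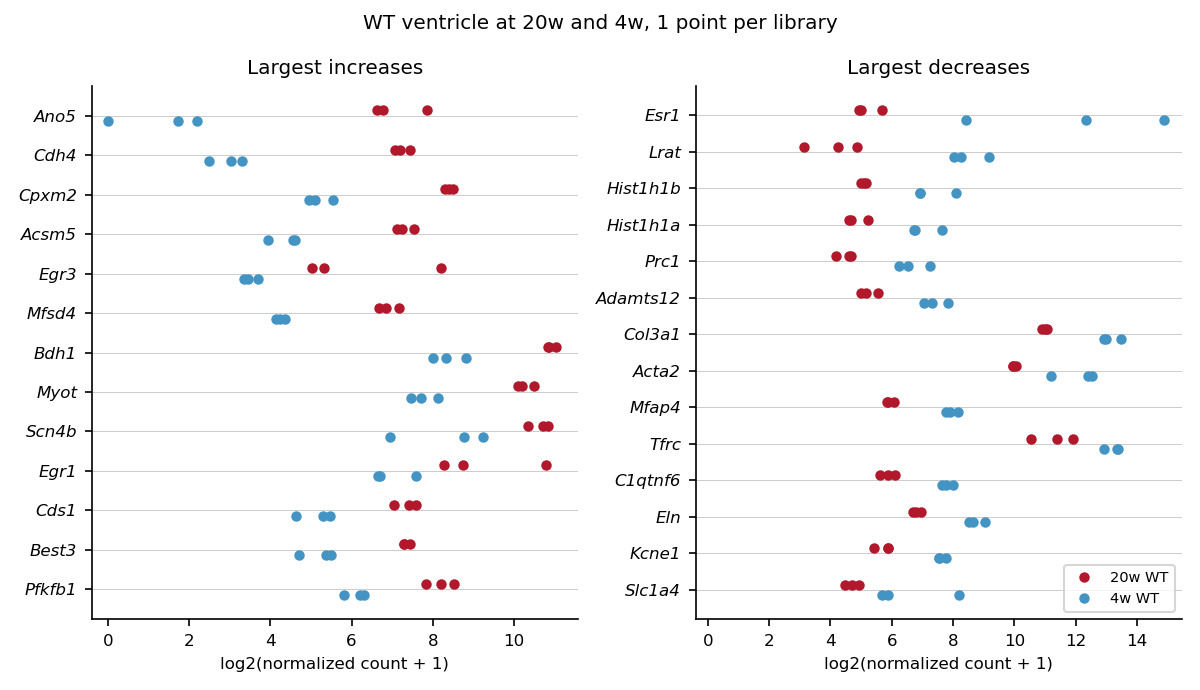
Normalized counts, as log2(value + 1), of genes with the largest increases (left) and the largest decreases (right) by the rule for named genes, with 1 gene of the left panel not shown, 1 point per library, with the 20w WT libraries above the 4w WT libraries in each row. The groups do not overlap in any row by the rule, Esr1 spreads widely at 4w, and Egr1 and Egr3 have 1 high library at 20w.

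Collagen chains had the highest share of calls among the lists with at least 10 tested genes. Of 20 chains, 19 were lower at 20w and none was higher, with a median log2 fold change of -1.12 against -0.017 over all genes. Col3a1, the fibrillar collagen of young elastic tissue, was at 1928.1, 2166.2 and 2071.8 at 20w, against 11441.8, 7754.8 and 8187.8 at 4w (-2.13 ± 0.14, adjusted p = 1.3e-08). Col1a2, a chain of the main structural collagen, was at 1486.4, 1508.3 and 1370.7, against 4102.8, 3141.7 and 3045.5 (-1.22 ± 0.12, adjusted p = 1.4e-06). For both, the 20w libraries lay well below the lowest 4w library, where the naming rule required groups without overlap for Col3a1. Col5a1 and Col5a2, which start fibril assembly, fell 2.56-fold and 2.53-fold, and Col6a1, of the beaded filaments around cells, fell 2.52-fold. The summed collagen value was 18877, 18706 and 17642 at 20w and 51608, 37142 and 38074 at 4w, with 4wWT1 the highest. Without 4wWT1 18 chains were called, and 17 to 19 were called under every alternative.

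Genes that fold, trim and cross-link collagen fell with it, in 13 of 22 cases and with none higher. Loxl2, a lysyl oxidase that cross-links fibres, was at 247.5, 289.5 and 290.1 at 20w, against 1088.7, 785.1 and 778.2 at 4w (-1.66 ± 0.14, adjusted p = 2.1e-07). Adamts2, which removes the collagen propeptide, fell 2.58-fold, Serpinh1, the collagen chaperone, fell 1.94-fold, and Pcolce, which speeds propeptide removal, fell 1.80-fold. Of 38 other matrix genes, 24 fell and 1 rose, with a median of -0.59. Eln, elastin, was at 109.6, 103.6 and 123.9 at 20w, against 529.4, 370.5 and 399.0 at 4w (-1.92 ± 0.16, adjusted p = 1.3e-07). Sparc, a collagen-binding protein of growing tissue, was at 2968.1, 3041.2 and 3110.0, against 11691.5, 8810.4 and 7799.3 (-1.61 ± 0.12, adjusted p = 2.9e-08). The 20w libraries were again tightly grouped. They lay below all of the 4w libraries, as the naming rule required for Eln. Without the 4 libraries highest in Rn45s (20wWT2, 4wWT2, 20wKO2 and 4wKO2), 16 of the 38 fell. Mfap4, a microfibril protein, fell 4.06-fold, Fmod, a small proteoglycan on collagen fibrils, fell 2.31-fold, and Mmp2, a gelatinase, fell 2.11-fold. The matrix gene that rose was Cyr61, named after its values were seen, at 1959.4, 689.2 and 821.8 against 553.8, 341.9 and 354.9. Its highest value was in 20wWT1, the library with high immediate early genes, and the other 20w values were also above every 4w value. Cyr61 is itself induced rapidly by serum and stretch, and the part of such induction in its rise was not tested.

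Fibroblast markers moved the same way, with 12 of 14 lower and none higher (median -0.68). Their summed value was 28497, 28177 and 28641 at 20w and 41592, 39765 and 37493 at 4w. Of the 12, 6 are matrix genes already counted above (Col1a1, Col1a2, Dcn, Lum, Mfap4 and Mfap5), and the other 6 include Pdgfra, the growth factor receptor that marks fibroblasts, with a log2 fold change of -0.36. Pdgfra and Dcn were named after their values were seen. In bulk tissue, fewer cells of a type and less RNA per cell cannot be told apart. The part of fibroblast number in the matrix result was not tested. Beside it, the summed value of 15 cardiomyocyte markers was 3438990, 3591310 and 3499650 at 20w and 2603330, 2672130 and 3003300 at 4w. Much of that sum was Ttn, with a mean of 1814190 at 20w and 1179120 at 4w. The mean log2 level of the 15 markers moved little, at 16.53, 16.53 and 16.48 at 20w and 16.35, 16.45 and 16.51 at 4w.

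Genes of dividing cells fell too. Of 30 mitotic cell cycle genes 22 were lower and 2 higher, with a median of -1.28, and of 27 DNA replication genes 12 were lower and none higher, with a median of -0.54. The promoters of many late cell cycle genes carry CCAAT boxes, which bind the factor NF-Y, and a CHR element, TTTGAA, through which the DREAM and MuvB complexes silence and activate them. The stretch from 250 bases before to 50 bases after the start of 4 of the genes that fell is shown because the members of the list moved together. The sequences are from RefSeq (GRCm38.p6), read 5′ to 3′ on the gene's strand, and capitals mark CCAAT or TTTGAA on either strand (ATTGG and TTCAAA on the opposite one). The regions are chr11:99024140-99024439 on the minus strand for Top2a, chr7:80294201-80294500 on the plus strand for Prc1, chr7:135716330-135716629 on the minus strand for Mki67 and chr9:22389157-22389456 on the minus strand for Anln.
Top2a: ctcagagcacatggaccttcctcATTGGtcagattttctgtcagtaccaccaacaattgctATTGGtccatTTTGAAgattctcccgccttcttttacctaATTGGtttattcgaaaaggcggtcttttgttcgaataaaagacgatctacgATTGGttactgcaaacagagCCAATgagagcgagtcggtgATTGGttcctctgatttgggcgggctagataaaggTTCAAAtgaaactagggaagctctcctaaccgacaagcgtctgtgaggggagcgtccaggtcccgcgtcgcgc
Prc1: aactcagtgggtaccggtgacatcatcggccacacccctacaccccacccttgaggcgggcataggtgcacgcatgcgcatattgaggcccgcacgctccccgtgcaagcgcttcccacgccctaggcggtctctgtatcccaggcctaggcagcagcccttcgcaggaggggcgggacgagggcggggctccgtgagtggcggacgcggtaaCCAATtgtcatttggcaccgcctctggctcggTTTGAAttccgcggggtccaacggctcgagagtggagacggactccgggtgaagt
Mki67: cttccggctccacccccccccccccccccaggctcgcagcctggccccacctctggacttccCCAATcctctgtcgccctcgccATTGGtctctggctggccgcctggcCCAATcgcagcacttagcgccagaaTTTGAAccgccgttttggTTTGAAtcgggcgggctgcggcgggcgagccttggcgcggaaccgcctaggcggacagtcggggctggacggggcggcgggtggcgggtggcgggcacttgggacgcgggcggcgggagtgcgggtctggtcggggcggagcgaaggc
Anln: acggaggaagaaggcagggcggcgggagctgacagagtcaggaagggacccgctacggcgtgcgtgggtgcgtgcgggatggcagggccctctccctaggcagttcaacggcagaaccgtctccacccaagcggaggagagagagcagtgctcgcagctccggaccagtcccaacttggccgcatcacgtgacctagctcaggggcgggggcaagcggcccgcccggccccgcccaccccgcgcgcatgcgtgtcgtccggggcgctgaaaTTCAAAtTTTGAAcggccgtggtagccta
Top2a holds 6 CCAAT and 2 TTTGAA, Mki67 holds 3 and 2, Prc1 holds 1 and 1, and Anln holds 0 and 2. Among all 27025 promoters of this length in the table, 37.9% hold CCAAT and 18.1% hold TTTGAA on either strand. The share within the list is not given because 22 of its 30 genes matched a promoter (73.3%), under the 80% needed. A match is a description of these letters and not a measured binding site.

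The values behind the cell cycle counts were as follows. Prc1, which bundles microtubules in the dividing cell's midzone, was at 23.5, 24.7 and 17.3 at 20w, against 149.8, 75.1 and 90.5 at 4w (-2.17 ± 0.24, adjusted p = 4.3e-06). Top2a, the topoisomerase that untangles chromosomes, was at 92.4, 88.8 and 101.9, against 480.5, 243.0 and 254.0 (-1.71 ± 0.19, adjusted p = 3.8e-06). In both genes 4wWT1 was the highest of the 4w libraries, and every 20w library was below every 4w library, as the naming rule required for Prc1. Mki67, the proliferation antigen Ki-67, was at 191.1, 149.7 and 229.0, against 812.4, 381.2 and 454.6 (-1.47 ± 0.20, adjusted p = 3.3e-05). Ccna2, cyclin A, fell 3.59-fold, and Anln, a scaffold of the cleavage furrow, fell 2.43-fold. For replication, Uhrf1, which copies DNA methylation, fell 2.11-fold, Cdc6, a licensing factor, fell 3.14-fold, and the helicase subunits Mcm3 and Mcm7 fell 1.79-fold and 1.73-fold. The 2 mitotic genes that rose were named after their values were seen: Cenpf, a kinetochore protein, at 2510.8, 3322.5 and 4745.8 against 751.3, 1364.2 and 2517.8, with groups that touch, and Ccnd2, cyclin D2, at 3876.6, 4194.2 and 3956.9 against 3326.0, 2803.4 and 2771.8. The summed value of the list was 8503, 9388 and 10618 at 20w against 8745, 6897 and 8289 at 4w, so it did not follow the median. Without 4wWT1, 7 replication genes were called lower, and without the 4 libraries highest in Rn45s 6 were.

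Clustered histone genes, whose messages are made in S phase, fell as a family, which was chosen after its values were seen. Of 51 tested, 44 were lower and none higher, with a median of -1.55, and 40 to 45 were called lower when any 1 of the 6 libraries was left out. With voom 36 were called lower. Members entered by their mean over all 18 libraries, so some may have passed the filter only through the ages where they were high. At a mean of at least 50 over the same libraries, 24 of 27 were lower, with a median of -1.08. Hist1h1b, a linker histone of dividing cells, was at 32.9, 31.3 and 34.5 at 20w, against 270.8, 121.5 and 119.5 at 4w (-2.23 ± 0.24, adjusted p = 2.6e-06). Hist1h1a, another such linker histone, was at 23.5, 24.7 and 36.1, against 198.7, 104.8 and 106.7 (-2.2 ± 0.25, adjusted p = 4.7e-06). The first 4w library was again the highest, and the groups did not overlap, as the rule for naming these 2 genes required. The family sum was 3430, 2893 and 3367 at 20w and 6549, 5166 and 5381 at 4w. Histone genes are near-identical copies, so the authors' counting, which is not given in the sources used here, could split reads between them.

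Imprinted and fetal growth genes were mostly lower at 20w, with 12 of 22 lower and 5 higher (median -0.46). Igf2, the fetal growth factor, was at 299.2, 340.5 and 285.4 at 20w, against 924.4, 956.7 and 829.2 at 4w (-1.55 ± 0.16, adjusted p = 1.4e-06). Peg3, a paternally expressed zinc finger protein, was at 169.2, 199.0 and 210.2, against 404.0, 414.6 and 418.7 (-1.10 ± 0.10, adjusted p = 3.6e-07). Both differed by far more than the spread within either age. Mest, a paternally expressed hydrolase-like protein, fell 3.41-fold, Slc38a4, an amino acid carrier, fell 2.17-fold, and Rian, a maternally expressed noncoding RNA, fell 1.83-fold. The 5 genes that rose, named after their values were seen, were Peg10, Zrsr1, Impact, Igf2r and Gnas, with log2 fold changes of 0.94, 0.60, 0.59, 0.25 and 0.22. With libraries at a common total no gene of the list was called higher and 12 were called lower, and without 4wWT1 3 were called higher. In the growth hormone and IGF list, 4 of 17 fell and 2 rose. Igf1, the postnatal growth factor, was at 480.9, 458.9 and 542.6 at 20w, against 886.7, 762.5 and 712.1 at 4w (-0.67 ± 0.13, adjusted p = 0.00097), and Igfbp7, a secreted IGF-binding protein, fell 1.70-fold. Insr, the insulin receptor, rose 1.29-fold, with the 20w libraries between 5818.8 and 6362.7 and the 4w libraries between 4423.6 and 4766.5, and at a common total its change was 0.23 (adjusted p = 0.26) and no gene of the list was called higher. Without 20wWT1, 2 genes of this list were called lower.

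The sarcomere list moved in both directions, with 6 of 32 higher and 6 lower and a median of 0.009. Myot, myotilin, which links actin filaments at the Z-disc, was at 1173.2, 1102.0 and 1428.7 at 20w, against 176.5, 207.3 and 278.3 at 4w (2.5 ± 0.19, adjusted p = 5e-08). Nrap, an anchor at the ends of myofibrils, was at 15005.2, 15025.1 and 15760.1, against 10222.2, 10117.3 and 11109.2 (0.54 ± 0.12, adjusted p = 0.0021). These 2 rises were present in every library of the older group, as the naming rule required for Myot. Acta2, the smooth muscle actin that fetal cardiomyocytes and activated fibroblasts also make, was at 997.7, 1060.9 and 999.0, against 5950.6, 5407.8 and 2342.7 (-2.05 ± 0.23, adjusted p = 4e-06). Myoz2, a Z-disc binder of calcineurin, fell 1.38-fold. Of 14 smooth muscle and pericyte markers, 2 fell, Acta2 among them, and 1 rose, with a median of -0.035, and their summed value was 45492, 45256 and 44376 at 20w and 49327, 49258 and 45701 at 4w. The part of smooth muscle cells in the Acta2 result was not tested. Without 20wWT2 or without 20wWT3, and at a common total, 3 sarcomere genes were called higher.

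Of the 8 called genes with the most reads, 7 were higher and 1, the ventricular light chain Myl3, was lower, by 1.22-fold. Without 20wWT2, 20wWT3, 4wWT2 or 4wWT3 the fall of Myl3 did not pass (-0.26, -0.25, -0.27 and -0.26, adjusted p = 0.11, 0.12, 0.088 and 0.087). Ttn, the giant spring of the sarcomere, was at 1733828, 1872308 and 1836445 at 20w, against 1170181, 1043717 and 1323464 at 4w (0.63 ± 0.19, adjusted p = 0.022). Without 20wWT2, 20wWT3 or 4wWT2 its change was 0.60, 0.62 or 0.54, with adjusted p = 0.077, 0.064 or 0.091, and at a common total it was 0.49 (adjusted p = 0.12). Ryr2, the calcium release channel, was at 103792, 99825 and 98874, against 64287, 61010 and 73397 (0.61 ± 0.11, adjusted p = 0.00047). Dsp, desmoplakin of the desmosome, was at 57273, 59008 and 56661, against 32247, 33845 and 37012 (0.75 ± 0.08, adjusted p = 4.2e-06). For Ryr2 and Dsp the lowest 20w library was above the highest 4w library by more than the spread within the older group. Cmya5, which tethers the sarcoplasmic reticulum to the Z-disc, rose 1.66-fold and Pde4dip, myomegalin, rose 1.38-fold. Of the 7 higher genes 4 missed the threshold at a common total, with an adjusted p of 0.12 for Ttn, 0.39 for Atp2a2, 0.13 for Pde4dip and 0.32 for Ogdh. Of 15 cardiomyocyte markers, 3 rose and 2 fell, with a median of 0.090 (-0.051 at a common total), and Myh6 did not pass the test (0.15 ± 0.14, adjusted p = 0.48). Leaving out 20wWT2, 20wWT3 or 4wWT2 left 1 cardiomyocyte marker called higher.

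Myh7, the fetal myosin, named after its values were seen, had 3325.2, 2875.1 and 2782.2 at 20w and 803.5, 13491.4 and 1040.3 at 4w (0.41 ± 0.68, adjusted p = 0.70), with 4wWT2 far above the other 4w libraries. Among 15 hypertrophic stress markers, 5 rose and 1 fell, with a median of 0.072 that was -0.068 at a common total, where 3 rose. Xirp2, an actin-binding protein of the intercalated disc, was at 41505, 44990 and 44277 at 20w, against 20835, 20957 and 25770 at 4w (0.96 ± 0.19, adjusted p = 0.00095). Ankrd1, a stretch-responsive ankyrin repeat protein, was at 17134, 16933 and 15210, against 9261, 9056 and 6245 (1.02 ± 0.26, adjusted p = 0.0068). Neither pair of groups overlapped. Edn3, an endothelin, was at 53.3, 52.6 and 40.8, against 8.88, 8.34 and 4.64 (2.62 ± 0.56, adjusted p = 0.0020). The natriuretic peptides, the usual markers of strain, named after their values were seen, did not pass the test: Nppa had a log2 fold change of -0.05 ± 0.56 (adjusted p = 0.96) and Nppb of -0.52 ± 0.33 (adjusted p = 0.26).

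Atrial markers were higher at 20w in 6 of 11 cases and lower in none, with a median of 0.43. Stard10, a lipid transfer protein, was at 271.0, 276.3 and 261.9 at 20w, against 135.4, 166.8 and 191.4 at 4w (0.72 ± 0.15, adjusted p = 0.0020). Myl4, the atrial light chain, was at 335.2, 460.5 and 447.0, against 277.4, 227.6 and 233.1 (0.74 ± 0.19, adjusted p = 0.0069). Both were above all 4w libraries, Myl4 by a smaller margin in 20wWT1. Bmp10, a growth factor of the trabeculae and atrium, named after its values were seen, was at 0.0, 143.1 and 10.98 at 20w and had no reads in any 4w library, so its call rested on 2 libraries. The list's summed value was 4381, 5753 and 4807 at 20w and 4781, 4855 and 3681 at 4w. The count was fragile: leaving out 20wWT2, 20wWT3 or 4wWT2 left 2 called, leaving out 4wWT3 left 3, and leaving out the 4 libraries with the most Rn45s left 1. The part of atrial tissue in the samples was not tested. Conduction system markers were mixed, with 2 of 11 higher and 3 lower, and Cntn2, an adhesion protein of Purkinje cells, rose 1.85-fold. Leaving out 20wWT1, 20wWT3, 4wWT1 or 4wWT3 left 1 conduction gene called lower.

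Of 35 genes for calcium, sodium and pacemaker channels and calcium handling, 13 were higher and 3 lower (median 0.14, and -0.0021 at a common total). Scn4b, a regulatory subunit of sodium channels, was at 1672.8, 1299.4 and 1816.1 at 20w, against 122.1, 433.7 and 603.1 at 4w (2.31 ± 0.42, adjusted p = 0.00054). Scn4a, the skeletal muscle sodium channel, was at 1350.2, 1082.3 and 955.1, against 344.0, 343.1 and 489.4 (1.53 ± 0.17, adjusted p = 5.5e-06). Cacna1c, the L-type calcium channel of cardiomyocytes, was at 8790.1, 8276.5 and 8373.3, against 5426.8, 4806.1 and 5405.6 (0.70 ± 0.10, adjusted p = 5.3e-05). In all 3 genes the groups were apart, as the naming rule required for Scn4b, for which 4wWT1 was low. Cacna1s, the skeletal L-type channel, rose 3.95-fold and Cacna1h, a T-type channel, rose 2.19-fold. Casq1, the skeletal calsequestrin that stores calcium, went the other way, at 189.5, 202.3 and 161.5 against 566.0, 682.7 and 585.7 (-1.72 ± 0.18, adjusted p = 1.9e-06). Atp2a2, the pump that refills the calcium store, was at 308477, 309071 and 305336, against 213004, 239710 and 269935 (0.36 ± 0.13, adjusted p = 0.043), and it missed the threshold without any 1 of 5 of the 6 libraries, with an adjusted p between 0.090 and 0.16. At a common total 7 genes of the list were called higher, and without 20wWT2, 20wWT3 or 4wWT1 1 was called lower.

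Potassium channels split almost evenly, with 7 of 26 higher and 6 lower (median 0.041). Kcnv2, a silent subunit that modifies other channels, was at 391.6, 361.9 and 500.3 at 20w, against 131.0, 114.4 and 154.2 at 4w (1.64 ± 0.26, adjusted p = 0.00018). Kcne1 was at 42.3, 57.6 and 58.0, against 185.3, 187.0 and 215.7 (-1.89 ± 0.15, adjusted p = 1.2e-07). Kcna5, of the ultrarapid current, was at 349.3, 356.9 and 390.5, against 589.3, 534.9 and 481.3 (-0.55 ± 0.10, adjusted p = 0.00069). The 3 genes kept their calls under every alternative. Kcnn2, a calcium-activated channel, rose 1.74-fold. The count of higher genes was 2 to 4 when 20wWT1, 20wWT2, 20wWT3, 4wWT1 or 4wWT2 was left out and 2 at a common total, and the count of lower genes was 3 without 20wWT2. Adrenergic and G protein genes rose in 6 of 22 cases and fell in 1. Adra1a, an alpha-adrenergic receptor of cardiomyocytes, was at 1240.5, 949.0 and 901.8 at 20w, against 511.6, 411.0 and 455.8 at 4w (1.15 ± 0.24, adjusted p = 0.0017). Grk5, a kinase that desensitises such receptors, rose 1.83-fold, and Pde3a, which breaks down cyclic AMP, rose 1.54-fold.

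Metabolic genes showed modest rises in amino acid and fatty acid breakdown. In the breakdown of branched-chain amino acids, 11 of 24 genes were higher and 1 was lower (median 0.24). Mccc1, a subunit of the carboxylase in leucine breakdown, was at 1719.8, 1787.9 and 1765.9 at 20w, against 1036.5, 935.2 and 1232.8 at 4w (0.73 ± 0.10, adjusted p = 3.1e-05). Pcca, the subunit of propionyl-CoA carboxylase, rose 1.56-fold and Ivd, isovaleryl-CoA dehydrogenase, rose 1.47-fold. The exception was Bcat1, the cytosolic aminotransferase of growing tissue, at 14.1, 13.2 and 12.5 against 49.9, 29.8 and 41.8 (-1.51 ± 0.25, adjusted p = 0.00021). In fatty acid uptake and oxidation, 10 of 35 genes were higher and none was lower (median 0.17). Acad11, an acyl-CoA dehydrogenase, rose 1.55-fold, Etfa, which passes their electrons on, rose 1.46-fold, and Cd36, the fatty acid transporter, rose 1.36-fold. At a common total the higher calls were 3 in each of these 2 lists, while their medians were 0.25 and 0.19 above that of all genes, and without 4wWT1 6 fatty acid genes were called. Without the 4 libraries highest in Rn45s the higher calls in amino acid breakdown were 5.

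Genes that steer fuel choice were among those called in the PPAR alpha and glucose lists. Pdk4, the kinase that blocks glucose oxidation, was at 9017.2, 7421.3 and 7824.4 at 20w, against 2968.7, 5275.5 and 3280.9 at 4w (1.12 ± 0.21, adjusted p = 0.00084). Ucp2, a mitochondrial carrier, was at 346.2, 315.8 and 406.2, against 582.6, 1048.4 and 681.9 (-1.07 ± 0.21, adjusted p = 0.00088). The ages were apart for both, with 4wWT2 the highest 4w library each time. Pfkfb1, which sets the pace of glycolysis, was at 368.1, 228.6 and 294.8, against 55.5, 72.7 and 77.7 (2.09 ± 0.30, adjusted p = 6.6e-05). Hk2, hexokinase of muscle, rose 1.45-fold, Pfkp, the platelet form of phosphofructokinase, fell 1.75-fold, and 5 of 26 glucose genes were higher and 4 lower. Of 14 targets of PPAR alpha, 3 rose and 1 fell. In the list of sterol and fatty acid synthesis 7 of 28 fell and 2 rose, and Scd2, a desaturase, was at 408.8, 528.0 and 490.9, against 1146.4, 749.4 and 903.4 (-0.96 ± 0.14, adjusted p = 6e-05). Elovl6, an elongase, fell 2.53-fold, whereas Acacb, the carboxylase that restrains fatty acid import into mitochondria, rose 1.37-fold. In lipid droplet genes, 2 of 22 were higher and 1 was lower.

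The respiratory chain and the ribosome did not rise with the oxidation enzymes. Of 42 respiratory chain and ATP synthase genes none was higher and 8 were lower (median -0.15). Cox6a1, the non-muscle form of a cytochrome oxidase subunit, was at 606.2, 508.2 and 527.0 at 20w, against 950.0, 1006.7 and 1006.7 at 4w (-0.85 ± 0.11, adjusted p = 2.7e-05), and Sdhd, a subunit of complex II, fell 1.25-fold. Of 36 cytosolic ribosomal protein genes none was higher and 15 were lower (median -0.29), and Rpl5 was at 114.3, 151.3 and 136.4, against 183.1, 202.5 and 185.6 (-0.51 ± 0.12, adjusted p = 0.0043). Both lists hold short transcripts, as given above, and ribosomal protein genes have many processed copies in the genome that could share their reads. The ribosomal count was 8, 5, 7, 5 and 9 without 20wWT1, 20wWT2, 20wWT3, 4wWT2 and 4wWT3, and the respiratory count 5, 4 and 4 without 20wWT1, 20wWT3 and 4wWT3. Of 35 mitochondrial ribosomal genes 5 were lower, all by a factor under 1.30, and leaving out any library but 4wWT1 left 0 or 1. Of 31 proteasome subunits 4 were lower and 1 higher, and leaving out any library but 4wWT1 left 1 or 2 lower. The lower calls of the mitochondrial ribosomal and proteasome lists were near the share over all genes (11.8%).

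Cardiac and Kruppel-like transcription factors rose in 8 of 33 cases and fell in 1, with a median of 0.10 that was -0.039 at a common total. Tead1, the partner of YAP in growth control, was at 6689.7, 6968.9 and 6869.3 at 20w, against 3730.0, 3669.5 and 4343.2 at 4w (0.81 ± 0.12, adjusted p = 6.8e-05). Esrrg, a nuclear receptor that drives mitochondrial genes, was at 1926.5, 1926.0 and 1797.3, against 1195.2, 1310.5 and 1436.9 (0.52 ± 0.09, adjusted p = 0.00033). Srf, which drives actin and muscle genes, was the factor that fell, at 870.9, 825.7 and 947.3 against 1299.5, 1355.8 and 1120.3 (-0.51 ± 0.11, adjusted p = 0.0026). The ages did not overlap for any of the 3. Without 4wWT1 4 factors were called higher, and 1 was at a common total. Clock genes rose in 5 of 20 cases and fell in none, with a median of 0.040 that was -0.097 at a common total. Bhlhe41, a repressor in the clock, was at 770.6, 838.8 and 704.2, against 548.2, 555.2 and 444.2 (0.58 ± 0.13, adjusted p = 0.0035), and the clock count was 2, 3, 3 and 0 without 20wWT1, without 4wWT1, without 4wWT2 and at a common total. Of 21 glucocorticoid-induced genes 1 rose, Pdk4, and 1 fell, Tsc22d3, the leucine zipper protein GILZ (1.37-fold lower). Without 20wWT2 and without 4wWT3 the change of Tsc22d3 was -0.42 and -0.34 with an adjusted p of 0.055 and 0.078.

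Immediate early genes were high in 1 library. Egr1, a zinc finger factor switched on within minutes of a stimulus, was at 1751.1, 307.6 and 428.2 at 20w, against 190.9, 102.5 and 99.7 at 4w (2.29 ± 0.51, adjusted p = 0.0027). Egr3, its relative, was at 292.9, 31.3 and 39.2, against 9.99, 11.9 and 9.28 (2.68 ± 0.70, adjusted p = 0.0087). Nr4a2, an orphan nuclear receptor of the same class of rapid genes, was at 180.1, 36.2 and 36.1, against 16.6, 20.3 and 16.2 (1.76 ± 0.49, adjusted p = 0.013). In all 3 the library 20wWT1 stood far above the other 20w libraries. These were themselves above the 4w libraries, as the naming rule required for Egr1 and Egr3. Of the 24 genes of the list, 4 rose and 1 fell, and without 20wWT1 1 rose, without 20wWT3 8 rose. Without 20wWT1, Egr1 kept its call (1.53), and Egr3 and Nr4a2 had changes of 1.67 and 0.99 with an adjusted p of 0.060 and 0.090.

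Antigen presentation genes and macrophage markers had calls in opposite directions. Of 20 antigen presentation genes 8 were higher and 1 lower (median 0.28). H2-Aa, a class II molecule, was at 488.7, 411.2 and 462.7 at 20w, against 197.5, 183.5 and 212.2 at 4w (1.19 ± 0.18, adjusted p = 7.9e-05). H2-Eb1, another class II molecule, was at 267.8, 324.0 and 309.0, against 68.8, 153.7 and 136.8 (1.40 ± 0.25, adjusted p = 0.00043). The older group was above every 4w library for both, and the invariant chain Cd74 rose 1.78-fold. Macrophage markers went the other way, with 10 of 18 lower and none higher (median -0.49). C1qb, a complement subunit made by resident macrophages, was at 341.5, 320.7 and 301.1, against 644.8, 537.3 and 596.1 (-0.88 ± 0.12, adjusted p = 4.5e-05). Csf1r, the receptor for their growth factor, was at 502.8, 481.9 and 530.1, against 813.5, 702.9 and 684.2 (-0.53 ± 0.09, adjusted p = 0.00026), and Adgre1, the F4/80 antigen, fell 1.55-fold. The summed macrophage value was 4570, 4084 and 4233 at 20w and 6776, 5665 and 5778 at 4w. The B cell, T cell and neutrophil lists had 3, 1 and 7 tested genes and are not described. Without 20wWT1, and at a common total, 5 antigen presentation genes were called higher, and without the 4 libraries highest in Rn45s 4 were. The part of cell numbers in the class II and macrophage results was not tested.

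Interferon response genes were lower in 7 of 33 cases and higher in 1 (median -0.21). Rtp4, an interferon-induced chaperone, was at 70.5, 74.0 and 51.8 at 20w, against 127.6, 121.5 and 127.6 at 4w (-0.95 ± 0.16, adjusted p = 0.00021). Bst2, tetherin, fell 1.63-fold, and Irf9, part of the factor that drives the response, fell 1.40-fold. Their values were lower in every 20w library. Complement and acute phase genes rose in 5 of 23 cases and fell in 3 (C1qa, C1qb and C1qc, made by macrophages). Clu, the chaperone clusterin, was at 6020.9, 6064.3 and 5462.5, against 2017.6, 3407.4 and 3097.7 (1.08 ± 0.15, adjusted p = 5.3e-05), and Cp, the ferroxidase ceruloplasmin, rose 1.54-fold. Among 21 chemokines and cytokines 5 rose and 3 fell. Cxcl14 was at 228.7, 172.7 and 169.4, against 44.4, 44.1 and 78.9 (1.79 ± 0.32, adjusted p = 0.00043), Cx3cl1, the ligand of a macrophage receptor, rose 2.43-fold, and Ccl11, which draws eosinophils, rose 4.16-fold. Without 20wWT3 or without 4wWT1, 1 chemokine was called lower. All 3 tested erythroid genes fell, and their summed value was 354.0, 233.6 and 199.2 at 20w and 618.1, 649.3 and 424.5 at 4w.

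Other lists held few calls or calls in both directions. Vascular growth genes rose in 2 of 35 cases and fell in 3, with Aplnr, the apelin receptor of sprouting endothelium, at 368.1, 378.3 and 381.1 at 20w, against 1108.7, 642.2 and 546.2 at 4w (-0.96 ± 0.17, adjusted p = 0.00043). Sox18, an endothelial factor, fell 1.68-fold, and Figf, the growth factor VEGF-D, rose 2.35-fold. Without 4wWT3, 6 vascular growth genes fell. Of 14 endothelial markers 4 were lower, by a factor of at most 1.27, and none was without 20wWT2 or without 4wWT1. Without 4wWT1, 2 endothelial markers were called higher. TGF-beta and BMP genes rose in 5 of 35 cases and fell in 5, near the shares over all genes (13.3% higher and 11.8% lower). In that list Fstl1, follistatin-like 1, was at 1312.6, 1483.6 and 1546.4, against 4196.1, 2957.0 and 3155.7 (-1.23 ± 0.14, adjusted p = 4e-06). Without 20wWT2, 4wWT2 or 4wWT3 that list had 3, 2 or 3 genes called higher, and without 20wWT2, 20wWT3, 4wWT1 or 4wWT2 it had 3 called lower. Wnt ligands, receptors and antagonists rose in 2 of 26 cases and fell in 4, and Wnt targets rose in 1 of 15 and fell in 2. Tcf7l2, the transcription factor of the Wnt pathway, was at 264.7, 291.1 and 318.4, against 158.7, 175.1 and 149.6 (0.85 ± 0.17, adjusted p = 0.0013). The Wnt ligand and receptor list had 2 and 1 genes called lower without 20wWT1 and without 4wWT1.

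Lists of protein quality and stress had calls in both directions, several of them at or below the shares over all genes (13.3% higher and 11.8% lower), as with the heat shock and integrated stress lists. Of 24 atrophy ligases and autophagy genes 8 rose and 2 fell. Fbxo32, the ubiquitin ligase atrogin-1, was at 7425.8, 6539.7 and 6213.7 at 20w, against 4725.4, 3884.0 and 3819.0 at 4w (0.70 ± 0.13, adjusted p = 0.00074), and Trim54, a ligase of the sarcomere, rose 1.77-fold. Without 4wWT2, 5 genes were called higher. Heat shock genes rose in 3 of 26 cases and fell in 1, with Hsph1, a chaperone that renews HSP70, 1.80-fold higher and Bag3, its partner in clearing damaged filaments, 1.48-fold higher. Genes of folding in the endoplasmic reticulum fell in 6 of 28 cases and rose in 2, with Sec61a1, the protein translocation channel, at 670.4, 618.4 and 644.6, against 867.8, 865.0 and 865.2 (-0.43 ± 0.07, adjusted p = 0.00026), and without 4wWT1 3 fell. Antioxidant genes rose in 8 of 43 cases and fell in 5. Mgst1, a glutathione transferase of membranes, rose 1.65-fold, whereas Gpx7, a peroxidase of the endoplasmic reticulum, fell 2.04-fold. The antioxidant count of higher genes was 5, 4 and 5 without 20wWT1, 4wWT1 and 4wWT2. Genes of p53 and senescence fell in 5 of 18 cases and rose in 2, with Eda2r, a p53-induced receptor, 1.66-fold lower, and the integrated stress list rose in 2 and fell in 2 of 23 cases. Lists for lymphatic endothelium, adipocytes, mesothelium, nerve, skeletal muscle, lung and thymus held at most 9 tested genes each and at most 2 calls in a direction, and of 5 sex-linked genes 1 was called, Xist, at values close to 0.

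The scaling and the libraries rich in Rn45s moved the counts of many lists. At a common total the higher calls were 1 for antioxidant genes, 2 for atrophy genes, 2 for glucose genes, 1 for TGF-beta and BMP genes, 3 for adrenergic genes and 3 for complement genes. Without the 4 libraries highest in Rn45s they were 2 for antioxidant, 2 for potassium channel and 4 for transcription factor genes, and the lower calls were 3 for cytosolic ribosomal and 2 for respiratory chain genes. Collagens, mitotic genes, fibroblast markers and macrophage markers had 19, 22, 13 and 10 lower calls at a common total and 17, 23, 10 and 7 without those libraries. Of single genes named above, Nrap, Cd36, Acacb, Esrrg and Bhlhe41 also missed the threshold at a common total, and Ucp2, Cd74, Srf and Myl4 did so without those 4 libraries.

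**Figure D3:**
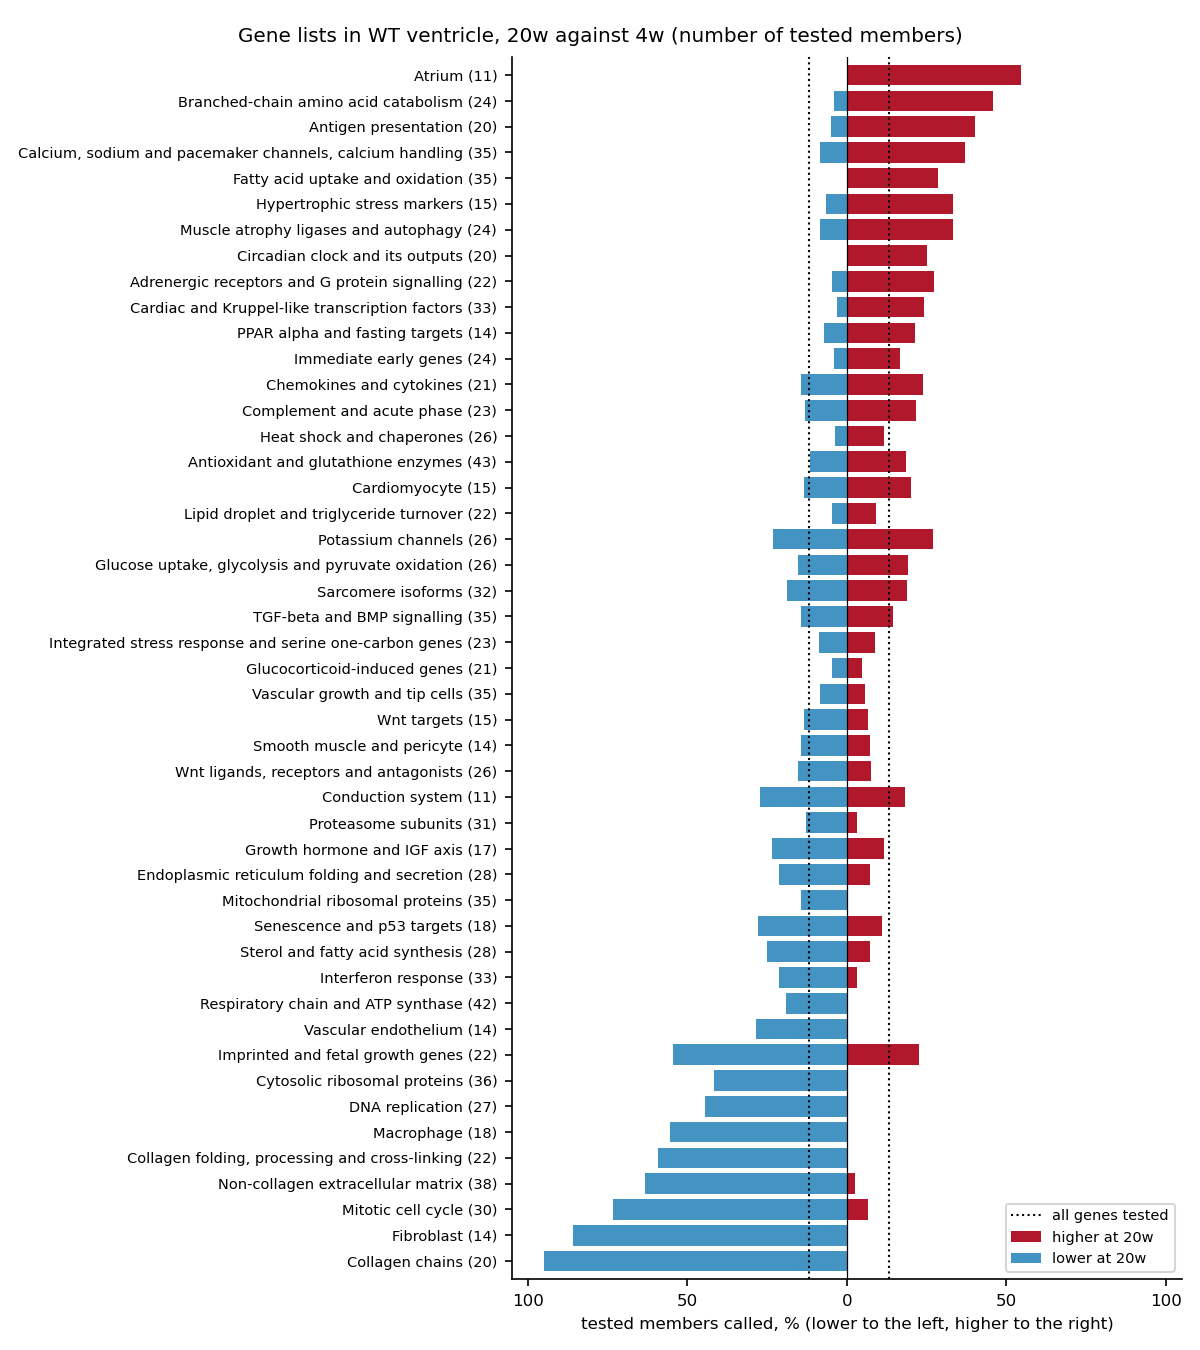
Share of tested members called in each list with at least 10 tested members, 20w over 4w WT, with higher calls to the right and lower calls to the left, and dotted lines at the shares over all genes (13.3% higher and 11.8% lower). Collagens, fibroblast markers and mitotic genes are at the bottom, with 19 of 20, 12 of 14 and 22 of 30 lower, and atrial markers and branched-chain amino acid catabolism are at the top, with 6 of 11 and 11 of 24 higher.

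The step from 4w to 20w can be set beside the step from P10 to 4w in WT, with the caution that both use the 4w WT libraries, so that an error in those libraries enters the 2 steps with opposite signs. Between P10 and 4w 7555 genes changed, 3746 of them higher at 4w (28.7%) and 3809 lower (29.2%), and 1913 changed by more than 1 on the log2 scale, against 490 between 4w and 20w. At a common total 24.7% of the genes called between P10 and 4w were higher, in place of 49.6%. The P10 WT libraries also differed in Xist, at 11077, 5229 and 9514, and in the Y-linked gene Ddx3y, at 713.4, 1111.8 and 633.6, against 2397.1 to 3756.1 in the 4w and 20w WT libraries. Both genes were thus read in each P10 WT library, while Xist did not pass 9.40 in the 4w and 20w WT libraries. The part of sex in the step from P10 to 4w was not tested. The mean log2 level of the 20 collagens was at least 11 in each library at P10, 9.84, 9.36 and 9.42 at 4w, and 8.35, 8.47 and 8.24 at 20w. For the 30 mitotic genes it was 8.54, 8.93 and 8.68 at P10, 6.56, 5.73 and 5.98 at 4w, and 4.94, 4.80 and 4.98 at 20w. The collagen and mitotic levels were thus lower at each later age in every library. Igf2 had a mean of 5541.9 at P10, 903.5 at 4w and 308.4 at 20w, and Eln of 4213.9, 432.9 and 112.4.

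Some lists did not go on in 1 direction. The mean log2 level of the 18 macrophage markers was 6.42, 6.68 and 6.57 at P10, 7.62, 7.40 and 7.36 at 4w, and 7.02, 6.92 and 6.94 at 20w, so that the 4w libraries were the highest. The 42 respiratory chain genes were at 11.75, 11.88 and 11.93 at P10, 12.45, 12.53 and 12.60 at 4w, and 12.36, 12.33 and 12.34 at 20w. Antigen presentation genes were at 6.07, 6.51 and 6.20, then 7.38, 7.27 and 7.27, and then 7.75, 7.73 and 7.66, higher at each age. Bdh1 had a mean of 8.58 at P10, 341.9 at 4w and 1927.8 at 20w, and Adra1a of 36.2, 459.5 and 1030.4. Esr1 was at 20.6, 10.8 and 14.6 in the P10 libraries, below all of the 4w WT values.

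**Figure D4:**
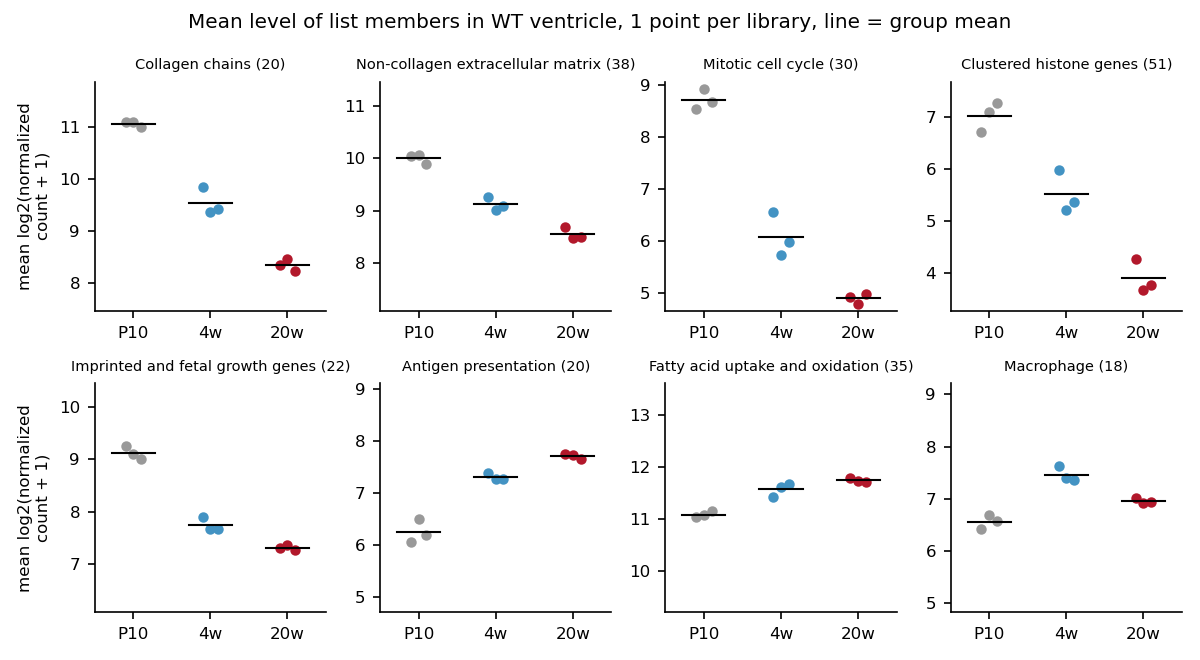
Mean log2(normalized count + 1) over the members of 8 gene groups in WT ventricle at P10, 4w and 20w, 1 point per library with a line at the group mean, and the number of genes in brackets. Collagens, other matrix genes, mitotic genes, histones and imprinted genes are lower at each age, antigen presentation and fatty acid genes are higher at each age, and macrophage markers are highest at 4w.

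The same step in the KO, measured in 6 other libraries, called 1235 genes higher at 20w (9.48%) and 1279 lower (9.81%). At a common total 66.0% of the KO calls were higher, in place of 49.1%, and the library 4wKO2 had 30.8% of its values in Rn45s. Of the WT calls, 733 higher genes were also called higher in KO, which is 42.2% of the WT list and 59.4% of the KO list. For lower genes the number shared was 739, which is 48.1% of the WT list and 57.8% of the KO list. Opposite calls were made for 6 genes. Counting direction alone, 88.7% of the genes that rose in WT had a positive step in KO, and 94.9% of those that fell had a negative one. The median KO step over all genes was -0.0092. In KO 16 of 20 collagens, 20 of 30 mitotic genes and 40 of 51 histones fell, and the largest WT increases included Ano5 at 4.95, Cdh4 at 4.90 and Bdh1 at 4.52 in KO on the log2 scale. Lower calls in KO against WT were 2 against 10 of 18 macrophage and 6 against 12 of 14 fibroblast markers. They were 12 against 24 of 38 other matrix genes and 5 against 15 of 36 cytosolic ribosomal genes. The collagen median was -0.68 in KO and -1.12 in WT. No member of these lists passed the test of the difference between the steps. Pfkfb1 and Egr3, also among the largest WT increases, did not pass in KO (0.79 and 1.97, limma, adjusted p = 0.075 and 0.055). Atrial markers were higher in 6 of 11 cases in WT and in none in KO, where 1 was lower, and none of the 11 passed the test of the difference between the steps.

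A test of the difference between the KO step and the WT step called 25 genes (0.192%), 23 of them with a lower step in KO. The split again depended on the scaling: at a common total 12 genes were called, 83.3% of them with a higher step in KO in place of 8.0%, and the median difference over all genes moved to 0.243. The totals include Rn45s, and that of 4wKO2 was 21518821, against 14360993 and 14210576 in the other 4w KO libraries. The part of 4wKO2 in this shift was not tested. Without 20wWT1, 20wWT2, 20wWT3, 4wWT1 or 4wWT2 the count was 8, 3, 3, 6 or 3. Abat, which breaks down the transmitter GABA in mitochondria, was at 659.4, 602.0 and 646.2 in the 20w WT libraries, against 138.7, 182.3 and 180.9 in the 4w WT libraries. In the KO it was at 34.0, 39.7 and 35.6 at 20w and at 39.6, 46.7 and 42.5 at 4w, so the rise was seen in WT libraries and its difference between genotypes was -2.16 ± 0.21 (adjusted p = 2.3e-05). Pcbp2, an RNA-binding protein, was at 1431.6, 1625.0 and 1516.6 in the 20w WT libraries, against 787.9, 801.8 and 847.8 in the 4w WT libraries, and its WT mean at P10 was 1581.2. Ubqln2, a shuttle to the proteasome, was at 485.6, 432.6 and 492.5, against 238.6, 249.0 and 255.1, with a P10 mean of 434.0. Polr2a, the large subunit of RNA polymerase II, was at 1036.9, 1139.8 and 1113.5, against 488.3, 469.4 and 479.0, with a P10 mean of 1100.9. These 3 genes were thus low in the 4w WT libraries and near the P10 level at 20w. Their KO steps were -0.05, 0.01 and 0.42, and the differences were -0.96 ± 0.13, -0.92 ± 0.13 and -0.77 ± 0.13 (adjusted p = 0.0022, 0.0022 and 0.026). At a common total none of the 3 differences passed (adjusted p = 0.17, 0.28 and 0.40), and without 20wWT2, 20wWT3 or 4wWT2 that of Polr2a did not (adjusted p = 0.083, 0.10 and 0.085).

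**Figure D5:**
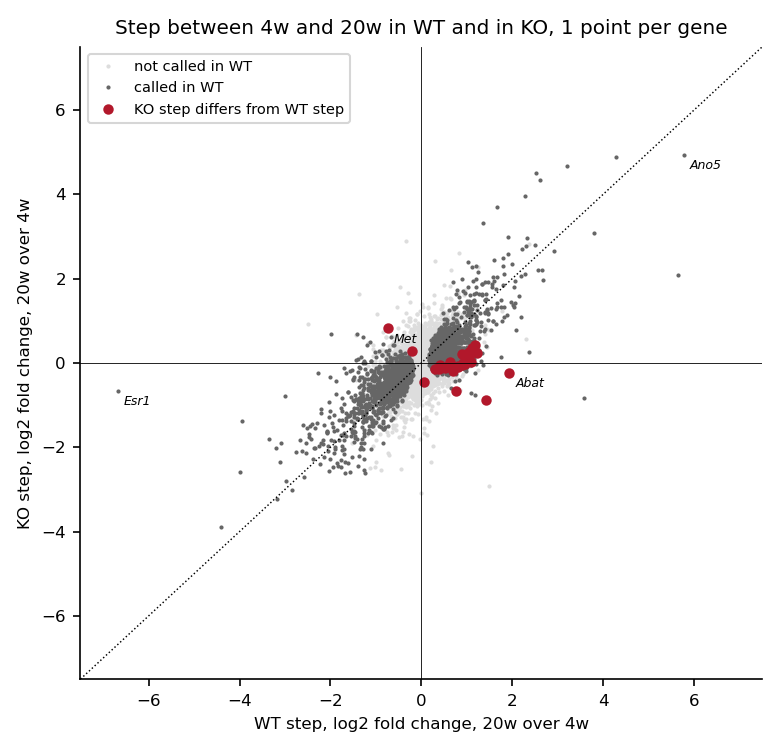
Log2 fold change, 20w over 4w, in WT (horizontal) and in KO (vertical), 1 point per gene, with genes called in WT in dark grey, genes not called in light grey, and the 25 genes whose 2 steps differ in red. Most called genes lie near the dotted line of equal steps, while Abat (1.93 in WT, -0.23 in KO) and Esr1 (-6.68 in WT, -0.65 in KO) lie far from it.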

How the data were processed

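The authors deposited a signal per gene, namely normalized counts of DESeq2, in which reads are divided by 1 factor per library. Per the submitters' processing notes, Bowtie2 2.0, DESeq2 and the build mm9 were used. The sources used here do not name the read counter, the strand setting or the annotation. All deposited values were whole multiples of the value of 1 read (100.0% within 0.001 reads), so reads could be recovered, and edgeR 4.0.16 called 2977 genes on them. Values were tested as log2(value + 1) with limma 3.58.1 in R 4.3.3, with 6 group means over 18 libraries, a trended variance prior, two-sided tests, Benjamini-Hochberg adjustment over 13032 genes, and an adjusted p under 0.05. A fold change is on this scale, which understates the change of low genes; folds are given as sizes, SE is the model's, and list summaries are medians of log2 fold changes.

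Genes named in the text are Klf15 and Shisa3, the 14 highest and 14 lowest changes among called genes whose 6 values averaged 50 or more and whose ages were fully apart, the 8 called genes with the most reads, up to 5 of each of 59 lists by adjusted p, and up to 5 per direction for the difference between genotypes. The members and lists were chosen with earlier results of these data known. The 27 entries whose names had become dates and 2 duplicated names were not interpreted. Lengths and promoters come from GRCm38, since no annotation of mm9 was used here, and no coordinates of the files are given. Alternatives were edgeR, DESeq2 1.42.0 and voom on recovered reads, other scalings, filters, pseudocounts, samples, a replicate block, library weights and leaving out libraries. Results for some genes that the rule names are not reported here.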

Additional observations from a re-analysis of the deposited data

Results flagged for a closer look

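The difference between the KO step and the WT step passed the test (limma, adjusted p under 0.05) in 25 genes, which are given for a closer look because the same change in age had different sizes in the 2 genotypes. Groups held 3 libraries, too few for a test of single libraries standing apart. Abat rose in WT and not in KO, with a difference of -2.16 on the log2 scale, and was called under each of the other analyses of that difference. The step was also lower in KO for Pcbp2 (-0.96), Ubqln2 (-0.92), Polr2a (-0.77) and Kmt2d, a histone methyltransferase (-1.07). Kmt2d was at 3245.4, 2911.3 and 3028.4 in the 20w WT libraries, against 1438.3, 1368.9 and 1515.8 in the 4w WT libraries. Met, the receptor of hepatocyte growth factor, had a difference of 1.57: it was at 40.7, 42.8 and 45.5 in the 20w WT libraries, against 107.6, 57.2 and 61.5 in the 4w WT libraries, with a KO step of 0.83. Lmod3, which nucleates thin filaments, had a difference of 0.49, with steps of -0.20 in WT and 0.29 in KO. Without 4wWT1 the difference of Met was 1.28 (limma, adjusted p = 0.065). Leaving out any 1 of the 6 WT libraries but 4wWT3 put Kmt2d, Met and Lmod3 past an adjusted p of 0.05, up to 0.10, 0.11 and 0.15.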

How the results depend on the processing

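No named gene changed sign with a call under any alternative, but the balance of higher and lower calls and the sign of several list medians turned at a common total, as given beside those results. The WT count of 3273 fell to 1771 at a common total, 1750 without the 4 libraries highest in Rn45s and 1703 at an adjusted p under 0.01, and lay between 2348 and 2880 when 1 of the 6 libraries was left out. It was 2977 with edgeR, 2918 with DESeq2 and 2607 with voom. The KO count of 2514 became 1219, 1652 and 1323 under the same 3 changes, and the P10 to 4w count moved by less than 1.5 times under each alternative. The count of 25 genes for the difference between genotypes was 15 with edgeR, 141 with DESeq2, 15 with voom, 12 at a common total, 7 without a filter, 90 with library quality weights, 5 without the libraries highest in Rn45s, 3 at an adjusted p under 0.01, and 3 to 21 (3 to 8 where it moved) when 1 library was left out; the cause was not tested. Of 6209 values of named genes under alternatives, 5664 kept their side of the threshold and 503 lost it. The replicate numbers were not taken as pairs, since the labels give no pairing and the correlations of same-numbered libraries (0.110, 0.034 and 0.109) were not all over 0.1, although each 20w library correlated best with its own number. Replicate 2 also had the highest Rn45s share of its group at each age in WT and KO, the 4 libraries left out above among them. What the replicate numbers stand for is not given and was not tested. With the replicate block 3065 genes changed in WT and 3 differed between genotypes. The depth of 9504538 to 12348671 reads limits genes with few reads. KO and P10 alternatives were added after seeing the data.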
